A study of Mus musculus with 8 samples.

Results

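Transcripts of 6 enzymes that lengthen or desaturate long-chain fatty acids, Fads1, Fads2, Elovl1, Elovl2, Elovl5 and Scd2, were followed in 8 mouse livers by genotype. They were picked by gene symbol from the 25078 genes of the deposited count table, and all 6 were present and passed the filter on low counts, along with 14438 genes in all. Each is annotated as protein-coding in GENCODE M21. Fads1, Fads2, Elovl2 and Elovl5 act on polyunsaturated fatty acids, whereas Elovl1 and Scd2 are known for acting on saturated and monounsaturated chains.

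The livers came from male C57/BL6 mice fed a diet high in fat, fructose and cholesterol for 25 weeks. There were 3 livers from mice with a global knockout allele of Midn on 1 chromosome, which the genotype label calls Midn hemizygotes and the titles Het, and 5 from wild-type mice on the same diet. Midn encodes midnolin, a nuclear protein that carries short-lived proteins to the proteasome, and the submitters asked what it does in fatty liver disease. The knockout was global, with the deleted part of the gene, the age of the mice, litters and batches not given in the sources used here. The p-values therefore reflect only the spread among these 8 samples.

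Mammals obtain linoleic and alpha-linolenic acid from food and convert them to arachidonic, eicosapentaenoic and docosahexaenoic acid in the endoplasmic reticulum, chiefly in liver. Fads2 begins the route and Elovl5 lengthens its product. Fads1 then adds the last double bond of arachidonic and eicosapentaenoic acid, and Elovl2 makes the longest chains, which are shortened in peroxisomes to give docosahexaenoic acid. Genes of this route are known targets of the transcription factors SREBP-1c, LXR and PPARα, and its end products are known to hold SREBP-1c back.

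The genes lie in small clusters of relatives (coordinates of the deposited table, mm10). Fads2 (chromosome 19, 10062765 to 10101503, minus strand) and Fads1 (chromosome 19, 10182888 to 10196872, plus strand) point away from each other with 81384 bases between them. Scd2 (chromosome 19, 44293676 to 44306862, plus strand) lies 87587 bases from Scd1, the main stearoyl-CoA desaturase of adult mouse liver. The elongase genes lie apart, Elovl1 on chromosome 4 (118428093 to 118432952, plus strand), Elovl2 on chromosome 13 (41182382 to 41220403, minus strand) and Elovl5 on chromosome 9 (77917365 to 77984519, plus strand). Elovl1 shares 52 bases with Cdc20 on the opposite strand, and reads from those bases cannot be told apart, since no source used here says whether counting used strand. Fads1 and Scd2 contain the microRNA genes Mir6993 (65 bases) and Mir5114 (61 bases).

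The start regions of the 3 elongase genes are shown because their transcripts followed different courses over the livers, given further on. Each is the stretch before the gene's first RefSeq start (GRCm38.p6), without bases that GENCODE M21 places in an exon, read 5′ to 3′ on the gene's strand. Capitals mark matches, on either strand, to one of these motifs. The E-box was searched for as CACGTG, the GC-rich motif known as the GC box as GGGCGG, and the last motif was the CCAAT box.
Elovl5 (chr9:77917115-77917363, plus strand): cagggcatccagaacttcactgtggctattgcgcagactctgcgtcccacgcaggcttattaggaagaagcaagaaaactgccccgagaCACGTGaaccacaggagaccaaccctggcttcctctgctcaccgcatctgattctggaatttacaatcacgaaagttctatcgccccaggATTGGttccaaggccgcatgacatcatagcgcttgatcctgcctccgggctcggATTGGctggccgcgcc
Elovl2 (chr13:41220406-41220653, minus strand): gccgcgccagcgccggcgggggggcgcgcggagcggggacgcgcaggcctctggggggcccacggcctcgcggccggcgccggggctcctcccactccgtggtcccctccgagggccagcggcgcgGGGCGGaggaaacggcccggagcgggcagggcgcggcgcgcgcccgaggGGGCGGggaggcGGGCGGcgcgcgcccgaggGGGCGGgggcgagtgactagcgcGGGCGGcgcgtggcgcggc
Elovl1 (chr4:118427843-118428092, plus strand): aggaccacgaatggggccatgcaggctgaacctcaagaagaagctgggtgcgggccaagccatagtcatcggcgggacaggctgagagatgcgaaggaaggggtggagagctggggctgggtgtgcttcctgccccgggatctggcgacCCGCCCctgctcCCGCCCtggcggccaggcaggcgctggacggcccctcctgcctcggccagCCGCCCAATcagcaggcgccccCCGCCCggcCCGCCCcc
In the 250 bases before this first start, Elovl5 held 1 E-box and 2 CCAAT boxes, Elovl2 held 5 GC boxes, and Elovl1 held 5 GC boxes and 1 CCAAT box, which overlaps a GC box. Over the same window, 6.02% of 32851 RefSeq promoters held the E-box, 33.8% the CCAAT box and 32.7% the GC box. The sterol response element TCACCCCAC (0.496% of promoters) and the cyclic AMP response element TGACGTCA (1.55%) had 0 matches in these 3 windows. GC content was 55.6% for Elovl5, 87.2% for Elovl2 and 72% for Elovl1, against a median of 52.4%. RefSeq entries were found for 4 of the 6 members, with none for Fads1 and Scd2. Elovl1 and Elovl2 each had a second RefSeq start, whose window is not shown. That of Elovl1 held 2 GC boxes and 0 CCAAT boxes, and that of Elovl2 held 0 GC boxes.

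Library totals ran between 17508221 and 24916239 counts. Midn itself had 60.4, 39.0 and 51.6 CPM (counts scaled to library size, with TMM) in the het-labelled livers, against 68.7, 39.8, 71.4, 41.7 and 29.2 CPM in wild-type livers. The difference was 0.00 on the log2 scale (SE 0.30, adjusted p = 0.994 in edgeR's quasi-likelihood test). The level of Midn thus did not separate the labels over all 8 livers, and each direction below is that of the libraries labelled heterozygous. Rpph1, a structural RNA without a poly(A) tail, took 0.229 to 0.399% of counts in het-labelled livers, 0.304 and 0.331% in wild-type livers 1 and 3, and 0.673 to 1.06% in wild-type livers 2, 4 and 5. Values against these wild-type subsets are therefore also given for the members and lists, and the labels give no batch. Against wild-type livers 1 and 3, Midn stood at −0.54 on the log2 scale (SE 0.175, edgeR adjusted p = 0.104). Against wild-type livers 2, 4 and 5 it stood at 0.40 (SE 0.191, edgeR adjusted p = 0.167). The 8 hepatocyte markers were all detected and summed to 40300 to 71970 CPM in het-labelled livers and 37470 to 44820 CPM in wild-type livers. Het-labelled liver 2 stood apart from the other 2 of its group in some cell type markers. For resident Kupffer cell and adipocyte markers it lay between them. Its lipid-associated macrophage markers (8 of 8 detected) summed to 1282 CPM, against 320.3 and 362 CPM in het-labelled livers 1 and 3 and 902 to 1387 CPM in wild-type livers.

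By level per length, the polyunsaturate enzymes were abundant liver transcripts. Deposited RPKM (reads per kilobase of exon) was scaled to an effective library size, which was 0.888 to 1.247 times the count total. Averaged over all 8 livers, RPKM was 283 for Fads2, 219.9 for Elovl5, 122 for Elovl2 and 105 for Fads1. These are higher than 98.6, 98.1, 96.4 and 95.9% of the genes tested. Scd2 averaged 24.6 RPKM and Elovl1 15.4 RPKM, higher than 84.7 and 76.5% of genes tested. Some neighbours in this order did not keep it. Fads2 exceeded Elovl5 in 3 of 3 het-labelled livers but in 2 of 5 wild-type livers, those numbered 1 and 3, and the ratio ran from 0.804 to 2.17. Elovl2 exceeded Fads1 in 2 of 3 het-labelled and 3 of 5 wild-type livers (ratio 0.9 to 1.69). The mean log2 ratios of these 2 pairs of neighbours were smaller than their SD between livers, at 0.39 ± 0.55 and 0.22 ± 0.34 (SD, n = 8). Whether the means differ from 0 was not tested. Elovl5 exceeded Elovl2, Fads1 exceeded Scd2, and Scd2 exceeded Elovl1 in 8 of 8 livers.

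**Figure D1:**
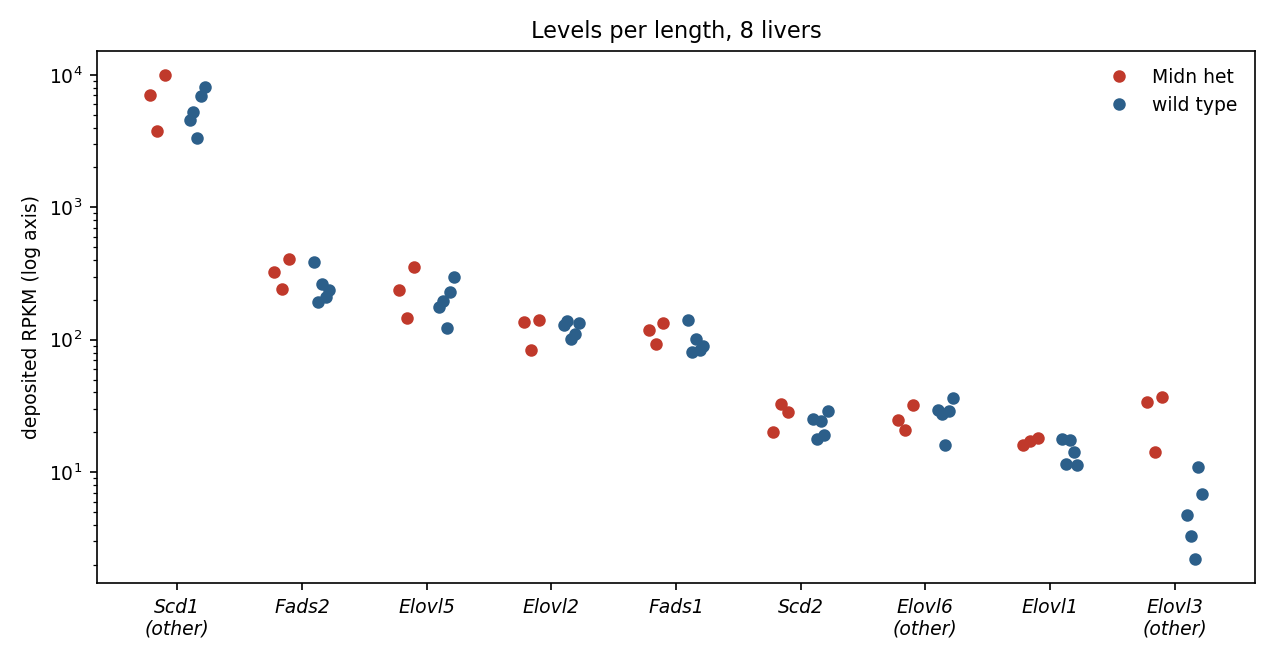
Deposited RPKM on a log axis for the 6 members and 3 other enzymes marked "other", 1 point per liver, het-labelled livers left of wild-type livers within each gene. Scd1 lies above every member in each liver, and the points of the 2 genotypes overlap for all genes shown but Elovl3.

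The desaturases that start and extend the polyunsaturate route, Fads2 and Fads1, were highest in the same livers. Fads2 had 988, 729.7 and 1232 CPM in het-labelled livers 1 to 3, against 1119, 598, 757, 620.1 and 713 CPM in wild-type livers 1 to 5. Het-labelled livers 1 and 3 and wild-type liver 1 were the high ones, and the genotypes overlapped. Fads2 averaged 983 ± 251 CPM in het-labelled livers (SD, n = 3) and 761 ± 210.0 CPM in wild-type livers (SD, n = 5), or 0.37 on the log2 scale (SE 0.27, 95% interval −0.23 to 0.97, edgeR adjusted p = 0.487). Fads1 had 429, 331 and 481 CPM in het-labelled livers, against 491, 299.9, 344, 295 and 317 CPM in wild-type livers. The same 3 livers were high, and het-labelled liver 2 lay within the span of wild-type livers 2 to 5. Fads1 averaged 414 ± 76.5 CPM in het-labelled livers (SD, n = 3) and 349 ± 81.4 CPM in wild-type livers (SD, n = 5), or 0.24 on the log2 scale (SE 0.22, interval −0.26 to 0.75, edgeR adjusted p = 0.57).

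Scd2, a stearoyl-CoA desaturase best known from brain and from the livers of newborn mice, had 114, 186 and 162 CPM in het-labelled livers. The wild-type livers had 137.5, 104, 129.6, 106 and 163 CPM. Its highest liver was thus het-labelled liver 2, in which the other desaturases were low for that group, and the genotypes overlapped. The means were 154 ± 36.7 CPM in het-labelled livers (SD, n = 3) and 128 ± 24.3 CPM in wild-type livers (SD, n = 5), or 0.27 on the log2 scale (SE 0.21, interval −0.21 to 0.75, edgeR adjusted p = 0.522). Scd1 had 35480, 18850 and 50400 CPM in het-labelled livers, against 22230, 26950, 15950, 34550 and 40100 CPM in wild-type livers. It is a close relative of Scd2 at a far higher level, so reads that the counting could not place between the copies make the level of Scd2 uncertain.

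Among the 3 member elongases, Elovl5 varied most between livers. It had 687, 423 and 1022 CPM in het-labelled livers, against 494, 579.5, 336.5, 654.5 and 848 CPM in wild-type livers. Het-labelled liver 2 and wild-type liver 3 were the low ones, and the highest liver, het-labelled liver 3, had 3.04 times the level of the lowest. Elovl5 averaged 710.5 ± 300 CPM in het-labelled livers (SD, n = 3) and 582.5 ± 190 CPM in wild-type livers (SD, n = 5), or 0.29 on the log2 scale (SE 0.35, interval −0.50 to 1.07, edgeR adjusted p = 0.663). Its wild-type coefficient of variation of 32.6% was higher than that of 66.4% of genes tested.

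Elovl2, which makes the longest polyunsaturated chains, had 562, 341 and 582 CPM in het-labelled livers. The wild-type livers had 518, 579.5, 393, 450.8 and 546 CPM. Het-labelled liver 2 was the lowest of all 8, and the other 2 het-labelled livers lay near the top of the wild-type range. The means were 495 ± 134 CPM in het-labelled livers (SD, n = 3) and 497.5 ± 75.1 CPM in wild-type livers (SD, n = 5), or −0.01 on the log2 scale (SE 0.23, interval −0.52 to 0.51, edgeR adjusted p = 0.987). Without het-labelled liver 2 it was 0.21 (adjusted p = 0.559). The hepatocyte marker sum was 40300 CPM in that liver, against 71970 and 60940 CPM in het-labelled livers 1 and 3. Alb alone had 29280 CPM of the sum in het-labelled liver 2. In wild-type livers the sum was 37470 to 44820 CPM, and the part of cell composition in the level of Elovl2 was not tested. In bulk liver, fewer cells of a type and less RNA per cell cannot be told apart.

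Elovl1, which supplies saturated and monounsaturated very long chains to sphingolipids, was the least abundant member. It had 32.7, 34.3 and 36.4 CPM in het-labelled livers, against 34.5, 23.7, 33.2, 28.3 and 22.6 CPM in wild-type livers. The het-labelled values lay close together and overlapped wild-type livers 1 and 3, while wild-type livers 2, 4 and 5 were lower. The means were 34.5 ± 1.87 CPM in het-labelled livers (SD, n = 3) and 28.5 ± 5.38 CPM in wild-type livers (SD, n = 5), or 0.27 on the log2 scale (SE 0.17, interval −0.11 to 0.66, edgeR adjusted p = 0.431). Counting error at its lowest count was 5.16% of the value, and between 0.941 and 2.27% for the other members.

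**Figure D2:**
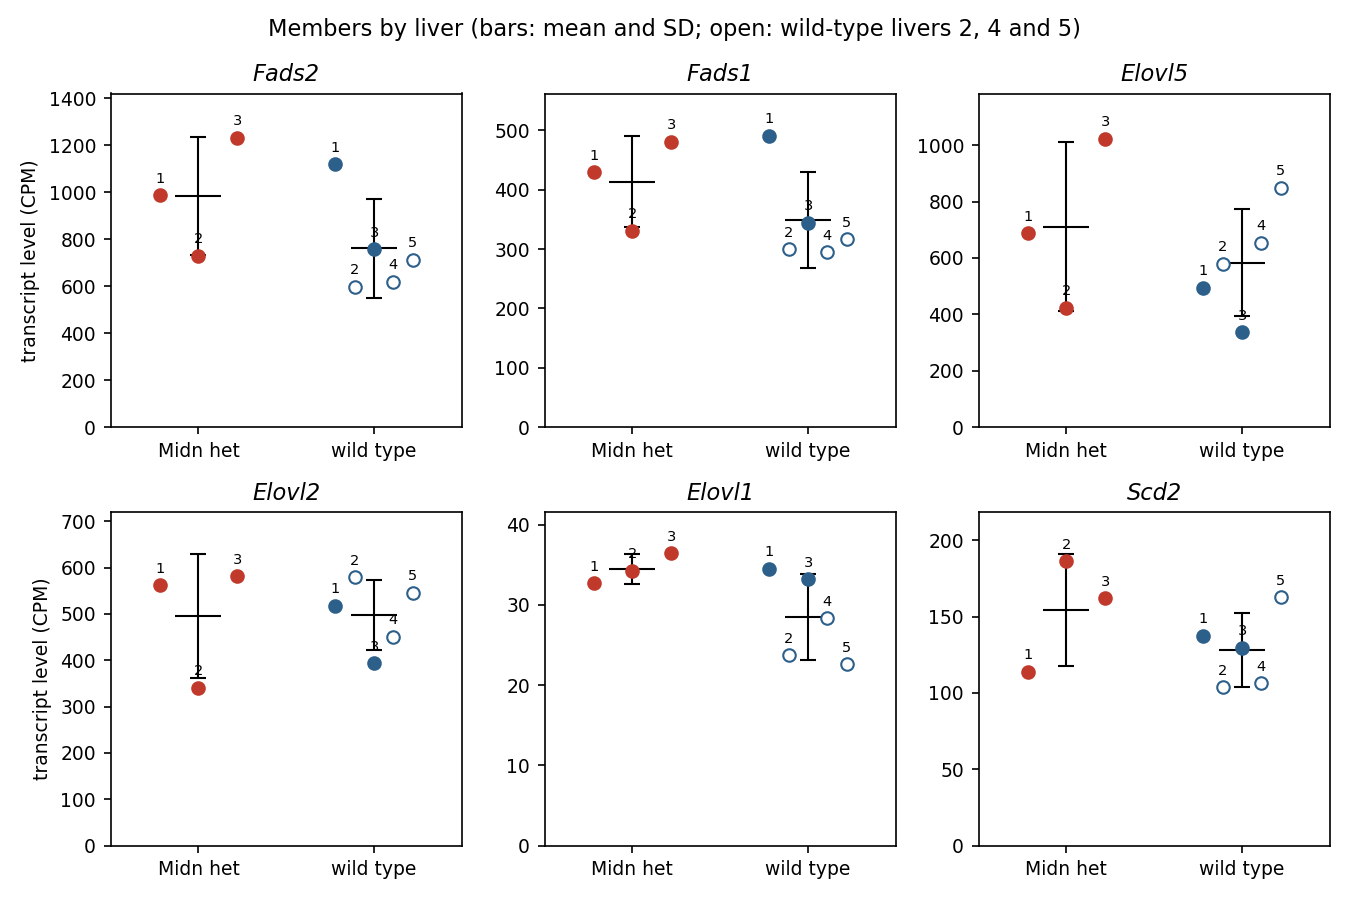
CPM of each member by liver, with het-labelled livers in red on the left and wild-type livers in blue on the right, replicate numbers above the points, and bars for the mean and SD. Open points are wild-type livers 2, 4 and 5, and the genotypes overlap in each of the 6 panels.

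Genotype did not separate any member. In edgeR's quasi-likelihood test 0 of the 6 members passed an adjusted p of 0.05, against 0% of the 14438 genes tested, and 0 of 6 had an unadjusted p under 0.05, against 15.7% of all genes (2271). DESeq2 called 0 of 6, against 1.1% of genes with an adjusted p (166), and limma-voom called 0 of 6 members and 0 genes in all. The genotypes overlapped in 6 of 6 members, while 9.86% of genes tested did not overlap. Fold changes were above 0 for 5 of 6 members, against 7271 of the 14438 genes tested. The median of the members was 0.27 on the log2 scale, against 0.00 over all genes tested. Of the 8 hepatocyte markers 7 were above 0, with a median of 0.45, and their part in the values of the members was not tested. Two-sided exact permutation tests of CPM gave p between 0.179 for Elovl1 and 0.964 for Elovl2, where 0.0357 is the smallest possible. The intervals of Fads1, Fads2, Elovl1, Elovl2 and Scd2 ended below 1 on the log2 scale, a doubling, and that of Elovl5 reached 1.07.

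These values depended on which wild-type livers were used. Against wild-type livers 2, 4 and 5 alone, the log2 fold change was 0.56 for Fads2 (interval 0.07 to 1.06), 0.40 for Fads1 (0.01 to 0.78) and 0.42 for Elovl1 (0.12 to 0.72), with edgeR adjusted p of 0.0972, 0.125 and 0.0561. These 3 of 6 members were higher at an unadjusted p under 0.05, against 18.8% of genes tested in that direction and 37.6% in either, and 0 of 6 passed the adjustment, against 18.9% of genes. Against wild-type livers 1 and 3 alone, the same genes stood at 0.00, −0.08 and −0.04 (edgeR adjusted p = 0.997, 0.84 and 0.82), and 0 of 6 members had an unadjusted p under 0.05, against 31.6% of genes, or an adjusted one, against 0.143%. Elovl5 ran the other way, at −0.02 (interval −0.73 to 0.70) against wild-type livers 2, 4 and 5, and 0.71 (−0.23 to 1.64) against wild-type livers 1 and 3. Scd2 stood at 0.27 and 0.15 in these comparisons, and Elovl2 at −0.14 and 0.05. Both subset comparisons share the het-labelled livers. The subsets were chosen by the Rpph1 share in these same libraries, so p-values against them, here and in the lists below, are descriptive. The Rpph1 share was 0.673 to 1.06% in the first subset and 0.304 and 0.331% in the second, and its part in these values was not tested.

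**Figure D3:**
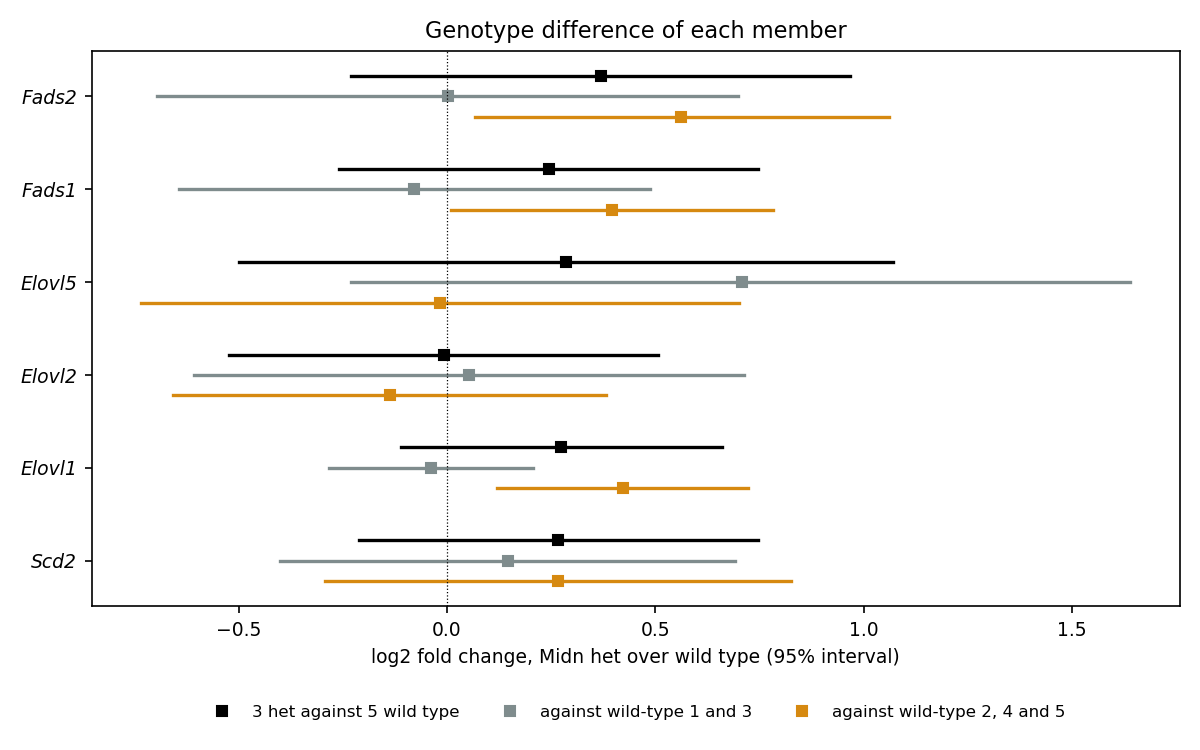
Log2 fold change of each member, het-labelled over wild type, with its 95% interval in edgeR, against all 5 wild-type livers (black), wild-type livers 1 and 3 (grey) and wild-type livers 2, 4 and 5 (orange). The black and grey intervals all include 0, and the orange ones lie above 0 for Fads2, Fads1 and Elovl1.

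Fads1 and Fads2 followed each other over the livers. Pearson's r of log2 CPM over the 8 livers was 0.987 (exact permutation p = 0.000198, adjusted p = 0.00297 over the 15 pairs of members) and Spearman's rho 0.952 (exact permutation p = 0.00114, adjusted p = 0.0171). Without the 2 livers farthest from the median of Fads1, r was 0.98, and within the 5 wild-type livers it was 0.987. No other pair passed the adjustment, with an adjusted p of 0.177 or more for r. Elovl1 and Fads2 had r = 0.713 (exact permutation p = 0.0473, adjusted p = 0.177) and rho = 0.833 (exact permutation p = 0.0154, adjusted p = 0.116). Elovl1 and Fads1 had r = 0.709 (exact permutation p = 0.0467, adjusted p = 0.177) and rho = 0.786 (exact permutation p = 0.0279, adjusted p = 0.138). Elovl2 and Elovl5 had r = 0.745 (exact permutation p = 0.0358, adjusted p = 0.177) and rho = 0.762 (exact permutation p = 0.0368, adjusted p = 0.138), with r = 0.339 without the 2 livers farthest from the median of Elovl2.

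The genes most like each member were sought by Pearson's r of log2 CPM over the 8 livers, among 8794 genes with a mean of at least 10 CPM, as a description. Both Fads1 (r = 0.989) and Fads2 (r = 0.984) were most like Grb7, which encodes a signalling adaptor. Lss, which encodes the cholesterol synthesis enzyme lanosterol synthase, was among the 4 nearest of both (0.934 for Fads1 and 0.956 for Fads2). The other near genes were Top3a (0.945) and Phka2 (0.945) for Fads1, and Kif16b (0.952) and Trmt1 (0.944) for Fads2. Elovl5 was most like Scd1 (0.991), followed by Dlat, a subunit gene of pyruvate dehydrogenase (0.98), Rraga (0.97) and Timm17b (0.97). Elovl2 was nearest to Aspg (0.979), Nrbp1 (0.957), Jak1 (0.957) and Gch1 (0.956). Elovl1 was nearest to Bms1 (0.985), Arf3 (0.982), Lasp1 (0.982) and Ticam1 (0.981), and Scd2 had no gene above 0.815 (Pitpna and Ttc39a, then Celf2 at 0.814 and Rpl27 at 0.809). All these values share library, depth and scaling.

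**Figure D4:**
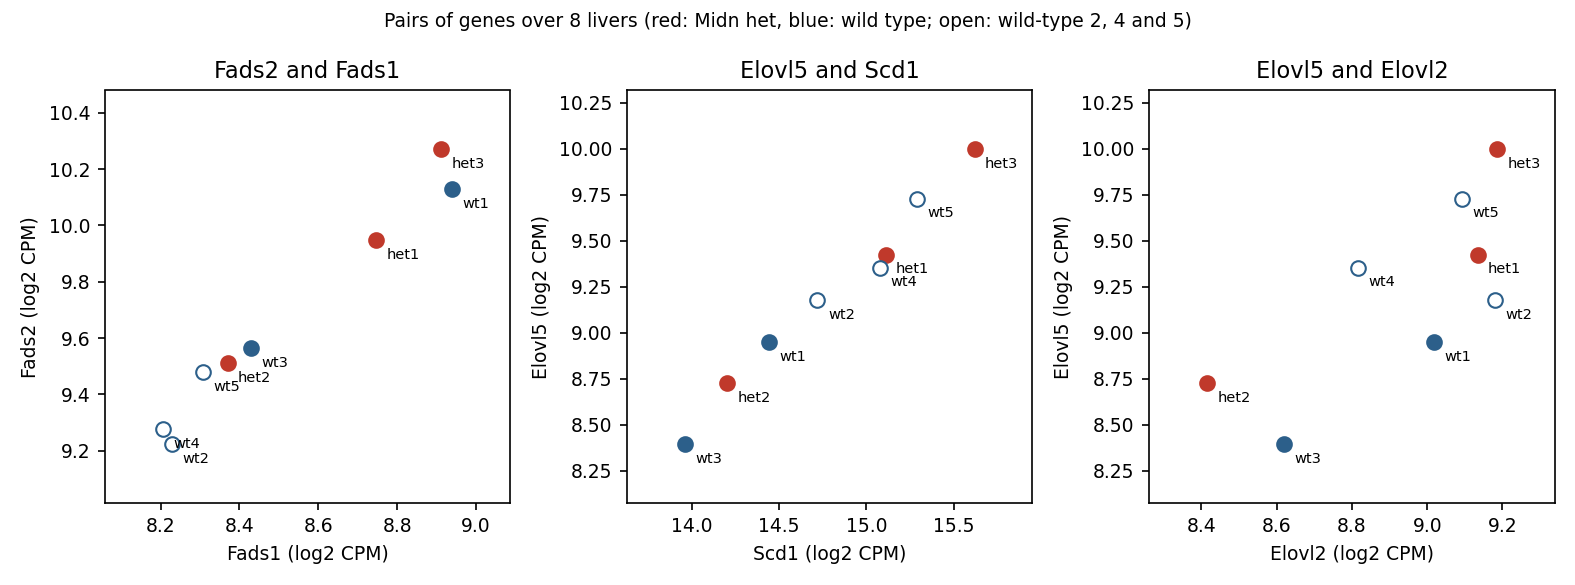
Log2 CPM of Fads2 against Fads1, of Elovl5 against Scd1 and of Elovl5 against Elovl2, 1 point per liver, with het-labelled livers in red and wild-type livers in blue (open for wild-type livers 2, 4 and 5). The first 2 panels form narrow lines on which both genotypes lie (r = 0.987 and 0.991), and the last scatters more (r = 0.745). Scd1 had the highest r with Elovl5 among 8794 genes compared, so its r is a maximum over many genes and was not tested.

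Ratios within a liver do not depend on library scaling. Fads2 over Fads1 by RPKM was 2.74, 2.62 and 3.04 in het-labelled livers, against 2.71, 2.37, 2.61, 2.50 and 2.68 in wild-type livers. This was the steadiest ratio, and its log2 difference was 0.12 (two-sided exact permutation p = 0.143, adjusted p = 0.429 over the 3 ratios). Elovl5 over Elovl2 was 1.74, 1.77 and 2.50 in het-labelled livers, against 1.36, 1.43, 1.22, 2.07 and 2.21 in wild-type livers (log2 difference 0.30, exact permutation p = 0.321, adjusted p = 0.482). Het-labelled livers lay between wild-type livers 1 to 3 and wild-type livers 4 and 5, apart from het-labelled liver 3 above them all. Scd2 over Scd1 was 0.00285, 0.00876 and 0.00285 in het-labelled livers, against 0.00549, 0.00342, 0.00721, 0.00273 and 0.0036 in wild-type livers. Het-labelled liver 2 was the highest of all 8, and the difference did not pass (−0.02, exact permutation p = 0.964, adjusted p = 0.964).

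Other elongase and desaturase genes, which include the sphingolipid desaturases Degs1 and Degs2, went both ways. Of these, 0 passed the adjusted threshold in edgeR against all 5 wild-type livers. Of 9 tested among 11 such genes, an unadjusted p under 0.05 was reached by 2 higher and 1 lower one, against 10.3 and 5.43% of all genes tested, with a median log2 fold change of −0.05. Elovl3, an elongase of saturated and monounsaturated chains, had 66.9, 27.4 and 72.9 CPM in het-labelled livers, against 8.97, 6.54, 4.07, 20.9 and 13.2 CPM in wild-type livers. Here the genotypes did not overlap, unlike in the 6 members, although the difference from them was not tested. The log2 fold change of Elovl3 was 2.38 (SE 0.50, edgeR adjusted p = 0.259, DESeq2 adjusted p = 0.00307). DESeq2 called only this 1 gene of the list, against 1.1% of genes with an adjusted p. Fads6, a little-studied relative of the desaturases, averaged 44.1 ± 8.53 CPM in het-labelled livers (SD, n = 3) and 30.5 ± 6.89 CPM in wild-type livers (SD, n = 5), and Elovl7, another elongase, averaged 4.80 ± 4.15 CPM in het-labelled and 11.8 ± 4.68 CPM in wild-type livers. Fads3, next to Fads2 on chromosome 19, averaged 5.94 ± 3.22 CPM in het-labelled and 9.76 ± 4.95 CPM in wild-type livers. Elovl6, which lengthens palmitate, differed by −0.06 (SE 0.27). Against wild-type livers 2, 4 and 5, 2 of the list passed in edgeR, Elovl3 (1.99, adjusted p = 0.0362) and Fads6 (0.73, adjusted p = 0.0291), in a comparison in which 18.9% of all genes did. Against wild-type livers 1 and 3, 0 passed, against 0.143% of all genes, and an unadjusted p under 0.05 was reached by 1 higher and 2 lower ones (16.7 and 14.9% of all genes).

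The genes that complete each round of elongation and bring electrons to the desaturases reached an unadjusted p under 0.05 in 4 of 11 tested, 3 higher and 1 lower (13 listed, median 0.09, 0 after adjustment), against 10.3 and 5.43% of all genes tested. Tecr, the reductase of the last elongation step, averaged 90.0 ± 16.4 CPM in het-labelled livers (SD, n = 3) and 52.4 ± 17.8 CPM in wild-type livers (SD, n = 5). Cyb5r3, the reductase of cytochrome b5, averaged 371 ± 66.9 CPM in het-labelled livers and 203.5 ± 60.5 CPM in wild-type livers, without overlap (DESeq2 adjusted p = 0.104). Cyb5b, a mitochondrial cytochrome b5, differed by 0.59 (SE 0.25), and Hacd4, a dehydratase of the cycle, by −0.84 (SE 0.29). Hsd17b12, the reductase of its second step, differed by 0.40 (SE 0.28) and had an unadjusted p of 0.19. Cyb5a, a cytochrome b5 gene at a higher level than Cyb5b, averaged 1272 ± 206 CPM in het-labelled and 1619 ± 1030 CPM in wild-type livers. It differed by −0.35 (SE 0.52), with 0.93 against wild-type livers 1 and 3 and −0.88 against wild-type livers 2, 4 and 5. None of these genes passed in edgeR against all 5 wild-type livers, with adjusted p from 0.259 to 0.728. By unadjusted p, the list had 4 higher and 1 lower against wild-type livers 1 and 3 (16.7 and 14.9% of all genes). It had 2 higher and 4 lower against wild-type livers 2, 4 and 5 (18.8 and 18.7% of all genes). Against wild-type livers 2, 4 and 5, 4 passed the adjustment in edgeR, against 18.9% of all genes. They were Tecr (1.06, adjusted p = 0.0284), Cyb5r3 (1.03, adjusted p = 0.0326), Hacd4 (−1.10, adjusted p = 0.0352) and Cyb5r4, another cytochrome b5 reductase (−0.66, adjusted p = 0.0283), while against livers 1 and 3 0 passed.

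Peroxisomal genes, which include those that shorten the products of Elovl2, leaned higher. All 14 were tested, and 9 reached an unadjusted p under 0.05, 8 higher and 1 lower, against 10.3 and 5.43% of all genes tested, and 0 passed the adjusted threshold against all 5 wild-type livers. The median log2 fold change was 0.52. Acaa1a (0.62, SE 0.18), a thiolase, and Decr2 (0.59, SE 0.18), a reductase for polyunsaturated chains, were among the higher ones. Each had an edgeR adjusted p of 0.259, and their DESeq2 adjusted p was 0.126 and 0.117. Abcd2, a transporter known for polyunsaturated substrates, was the lower one, with 12.4, 33.8 and 29.8 CPM in het-labelled livers, against 73.6, 76.2, 50.3, 53.3 and 59.3 CPM in wild-type livers. This was −1.30 on the log2 scale (SE 0.32, edgeR adjusted p = 0.259, DESeq2 adjusted p = 0.0104). DESeq2 called only this 1 gene of the 14, against 1.1% of genes with an adjusted p. Against wild-type livers 1 and 3 the list reached an unadjusted p under 0.05 in 6 higher and 1 lower gene (16.7 and 14.9% of all genes), with 0 after adjustment. Against wild-type livers 2, 4 and 5 it had 5 higher and 1 lower (18.8 and 18.7% of all genes), and 2 passed the adjustment in edgeR, Abcd2 (−1.36, adjusted p = 0.0394) and Decr2 (0.62, adjusted p = 0.0445), against 18.9% of all genes. The median of the 8 hepatocyte markers was 0.45, with 7 above 0, and their part in this was not tested.

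Genes that activate polyunsaturates and place them in phospholipids went both ways, and 8 of 18 tested reached an unadjusted p under 0.05, 5 higher and 3 lower, against 10.3 and 5.43% of all genes tested (19 listed, median 0.23, 0 after adjustment). Acsl1, a long-chain acyl-CoA synthetase of liver, averaged 1261 ± 381 CPM in het-labelled livers (SD, n = 3) and 559.7 ± 115 CPM in wild-type livers (SD, n = 5). Its groups did not overlap (log2 fold change 1.17, edgeR adjusted p = 0.259, DESeq2 adjusted p = 0.00773). DESeq2 called only this 1 gene of the list, against 1.1% of genes with an adjusted p. Pla2g6, a calcium-independent phospholipase, averaged 77.1 ± 13.1 CPM in het-labelled and 36.2 ± 12.5 CPM in wild-type livers (DESeq2 adjusted p = 0.0616). Agpat3, an acyltransferase for polyunsaturated chains, differed by 0.49 (SE 0.18). Acsl4, the synthetase that prefers arachidonic acid, differed by −0.62 (SE 0.24, unadjusted p = 0.0275), and Lpcat2, an acyltransferase of inflammatory cells, by −0.91 (SE 0.31). The 8 markers of lipid-associated macrophages had 0 above 0 and a median of −0.78. Markers of T and NK cells had 0 of 7 tested above 0 (median −0.825), and those of bile duct 0 of 6 (median −1.01). Sinusoidal endothelial markers had 7 of 7 above 0 (median 0.31). The part of any of these cell types in the lower values was not tested. By unadjusted p, the list had 3 higher and 4 lower against wild-type livers 1 and 3 (16.7 and 14.9% of all genes), with 0 after adjustment, and 2 higher and 3 lower against wild-type livers 2, 4 and 5 (18.8 and 18.7%). In that second comparison 3 passed the adjustment in edgeR, against 18.9% of all genes, namely Acsl1 (1.16, adjusted p = 0.0327), Pla2g6 (1.29, adjusted p = 0.0295) and the arachidonate-releasing phospholipase Pla2g4a (−0.91, adjusted p = 0.0346).

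Among 15 regulators of these genes, an unadjusted p under 0.05 was reached by 4 higher and 0 lower ones, against 10.3 and 5.43% of all genes tested (median 0.31, 0 after adjustment). Hepatocyte markers were above 0 in 7 of 8, with a median of 0.45, and their part in this was not tested. Ppara, the fatty acid sensor PPARα, had 859, 522 and 803.5 CPM in het-labelled livers, against 493, 341, 387.5, 511 and 457 CPM in wild-type livers. The genotypes did not overlap, by a small margin in het-labelled liver 2 (log2 fold change 0.73, SE 0.22, edgeR adjusted p = 0.259, DESeq2 adjusted p = 0.102). Rxra, the partner of PPARα and LXR, differed by 0.70 (SE 0.24), Mlxipl, which encodes the carbohydrate sensor ChREBP, by 0.76 (SE 0.28), and Scap, the escort of SREBP proteins, by 0.67 (SE 0.27). Srebf1, which encodes SREBP-1, had 352, 201 and 447 CPM in het-labelled livers, against 280.1, 178, 179.7, 261 and 229.9 CPM in wild-type livers, and its difference of 0.56 (SE 0.27) had an unadjusted p of 0.0696. It overlapped through het-labelled liver 2. The LXR genes Nr1h3 (0.19, SE 0.23) and Nr1h2 (0.18, SE 0.15) also overlapped. By unadjusted p, 4 were higher and 0 lower against wild-type livers 1 and 3 (16.7 and 14.9% of all genes), with 0 after adjustment. Against wild-type livers 2, 4 and 5, 6 were higher and 1 lower (18.8 and 18.7%), and 5 passed the adjustment in edgeR, against 18.9% of all genes. They were Scap (0.91, adjusted p = 0.0382), Rxra (0.84, adjusted p = 0.0429), Srebf2, which encodes SREBP-2 (0.42, adjusted p = 0.0385), and the SREBP proteases Mbtps1 (0.59, adjusted p = 0.0344) and Mbtps2 (−0.60, adjusted p = 0.0483).

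Fatty acid synthesis genes, which share known regulators with some of the members, reached an unadjusted p under 0.05 in 0 of 11, against 15.7% of all genes tested (median 0.14). Elovl6 and Scd1 were counted both here and among the other elongases and desaturases. Fasn, fatty acid synthase, differed by 0.02 (SE 0.32) and Acacb, an acetyl-CoA carboxylase, by 0.81 (SE 0.39). Of 11 tested oxygenases of polyunsaturates and related genes (15 listed), 3 reached an unadjusted p under 0.05, against the same 15.7%. They were 2 higher and 1 lower, with a list median of −0.09 and 0 after adjustment. Cyp4f14, an omega-hydroxylase, differed by 0.99 (SE 0.29), Ephx2, which hydrolyses epoxides of arachidonic acid, by 0.69 (SE 0.24) and Cyp4a14 by −0.71 (SE 0.30). Of 8 tested sphingolipid genes (10 listed), for which Elovl1 supplies chains, 1 reached it, again against 15.7% (median 0.00). This was Cers2, the ceramide synthase for very long chains, with 315 ± 41.1 CPM in het-labelled livers (SD, n = 3) and 226 ± 18.2 CPM in wild-type livers (SD, n = 5). Its groups did not overlap (edgeR adjusted p = 0.265, DESeq2 adjusted p = 0.102). Against wild-type livers 2, 4 and 5, the adjustment in edgeR was passed by 0 synthesis genes, 1 oxygenase gene, Cyp4f14 (1.17, adjusted p = 0.0356), and 0 sphingolipid genes, against 18.9% of all genes. Against wild-type livers 1 and 3 it was passed by 0 genes of these 3 lists.

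**Figure D5:**
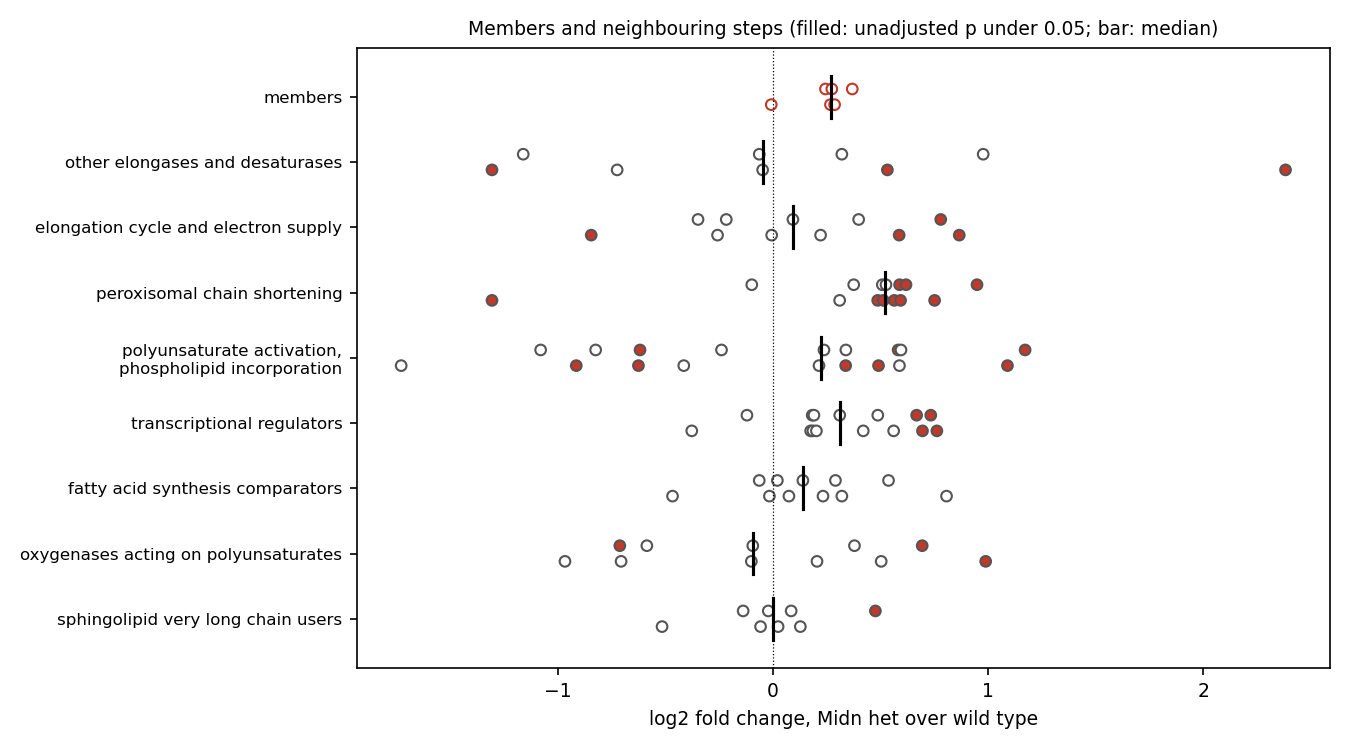
Log2 fold change, het-labelled over wild type, of each tested gene in the 6 members and 8 neighbouring lists, filled where the unadjusted p was under 0.05, with a bar at each list's median. The members lie between −0.01 and 0.37 with no filled point, and the peroxisomal list has its median at 0.52. Elovl6 and Scd1 appear both among the other elongases and desaturases and among the synthesis genes.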

How the data were processed

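RNA of 8 livers was sequenced from libraries made with the KAPA mRNA HyperPrep kit, per the labels' protocols. The submitters' processing notes name STAR, HTSeq, bcl2fastq 2.18.0.12 and mm10, with other versions, the annotation, strand use and the counting mode not given in the sources used here. The authors deposited raw counts per gene and RPKM values with total exon lengths. Groups follow the genotype label; replicate numbers are names in accession order. Between replicates, chi-square per degree of freedom was at least 36.0 in het-labelled and 22.9 in wild-type pairs, so each library counted once. Unused sample columns numbered 0.

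Counts were filtered with filterByExpr (minimum count 10, minimum total 15), scaled by TMM and tested across all genes with edgeR's robust quasi-likelihood test and Benjamini-Hochberg adjustment at 0.05. SEs and 95% intervals come from its F statistics. Ratios, CPM and correlations were tested by exact permutation. Log2 CPM for correlations had a prior count of 2. RPKM was used for levels between genes. Named are the members, Midn, Rpph1, up to 4 genes with the smallest p of each list, the 4 most alike to each member, and a few list genes added for their role or their subset result after their values were seen; some genes that this rule names are not reported here. The members and lists were chosen with earlier results of these data known. The fit was tested on simulated data. Alternatives were RLE or library-size scaling, DESeq2, limma-voom, 2 other filters, no robust estimation, limma on log2 RPKM (pseudocounts 0.1 and 1), leaving out Rn45s and Rpph1, each library, and 2 wild-type subsets. Tools were DESeq2 1.42.0, edgeR 4.0.16, limma 3.58.1, R 4.3.3, Python 3.11.15 and matplotlib 3.10.9.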

Additional observations from a re-analysis of the deposited data

Results flagged for a closer look

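Fads1 stood at 491 CPM in wild-type liver 1, far from the other wild-type livers at 295 to 344 CPM. Without that liver its log2 fold change was 0.39, against 0.24 with it. The macrophage receptor gene Marco stood at 7.21 CPM in wild-type liver 3, against 1.08 to 2.80 CPM in the other wild-type livers. In all, 72 wild-type groups were checked, and chance flags about 1 in 20.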

How the results depend on the processing

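No member passed an adjusted p of 0.05 under any of the 20 alternatives, and the smallest adjusted p was 0.0561 (Elovl1 against wild-type livers 2, 4 and 5). Leaving out 1 liver at a time gave log2 fold changes of 0.13 to 0.39 for Fads1, 0.18 to 0.55 for Fads2, 0.17 to 0.35 for Elovl1, −0.14 to 0.21 for Elovl2, −0.066 to 0.56 for Elovl5 and 0.12 to 0.45 for Scd2, with the lowest Elovl2 and Elovl5 values without het-labelled liver 3 and the highest without het-labelled liver 2. The sign of Elovl5 turned without het-labelled liver 3, and that of Elovl2 without het-labelled liver 2 or wild-type liver 1, 2 or 5. The sign also turned against wild-type livers 1 and 3 for Fads1 (−0.078), Elovl1 (−0.038) and Elovl2 (0.053), against wild-type livers 2, 4 and 5 for Elovl5 (−0.017), and with no filter for Elovl2 (0.010); the cause was not tested. Scaling by library size alone moved the median of all genes to −0.18, and Fads1 stood at 0.02 and Elovl2 at −0.21 there. Scd2 over Scd1 ran from −0.56 to 0.25 with 1 liver left out and was 0.36 against wild-type livers 2, 4 and 5 and −0.60 against wild-type livers 1 and 3; Elovl5 over Elovl2 was 0.080 and 0.62 in these comparisons. No paired analysis was possible because the labels give no replicate numbers shared between genotypes. With 3 against 5 livers, the interval of Elovl5 reached 1.07, beyond a doubling.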

Other observations

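Scd3, a stearoyl-CoA desaturase known from skin glands and a neighbour of Scd2 on chromosome 19, was nearly absent in most livers, and it was picked out after its values were seen. It had 15, 413 and 15 counts in het-labelled livers 1 to 3, against 7, 18, 13, 0 and 308 counts in wild-type livers 1 to 5. The 2 livers with the highest counts, het-labelled liver 2 and wild-type liver 5, also had the 2 highest levels of Scd2, at 186 and 163 CPM. Het-labelled liver 3 came close to the second of these, at 162 CPM of Scd2, with 15 counts of Scd3. They did not share a high level of Scd1, at 18850 CPM in het-labelled liver 2 and 40100 CPM in wild-type liver 5. These genes are close relatives, so how reads were placed between them is uncertain.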
